A study of Rattus norvegicus with 12 samples.

Results

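The miR-378 family was followed in rat serum through its 3 listed mature microRNAs, rno-miR-378a-3p, rno-miR-378a-5p and rno-miR-378b (rno stands for rat and is left out below). They are the names of this family among the 752 mature names of the deposited table. All 3 were above 0 in all 12 libraries and passed the filter on low values, which left 366 microRNAs for testing. Serum came from male rats of the Sprague-Dawley stock Jcl:SD, aged 7 weeks and given each agent orally once, with 3 libraries in each of 4 groups, although the design text gives 5 rats per group. Control rats received sterile distilled water. The other groups received caffeine at 180 mg/kg, dextromethorphan hydrobromide monohydrate at 200 mg/kg, or both, with dextromethorphan 1 h after caffeine. Blood was drawn 1 h after dextromethorphan. Library names such as ctrl1 and CAFDEX6 are those of the table's columns. Nothing ties a library to an animal of its own, and the p-values reflect only how these libraries vary, which may be technical.

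MicroRNAs are short RNAs that pair through their seed, bases 2 to 8, with messenger RNAs and repress them. The hairpin of miR-378a is transcribed from within Ppargc1b, the gene of PGC-1β, a coactivator of genes for mitochondria and fatty acid use. The family is best known from energy metabolism in skeletal muscle, heart, liver and brown fat, and caffeine is an adenosine receptor antagonist that raises energy expenditure. Dextromethorphan is a cough suppressant that blocks NMDA receptors. MicroRNAs in serum are released by many tissues, and the number of releasing cells and the RNA released per cell cannot be told apart.

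The sequences are shown because the arms of 1 hairpin carry different seeds and are followed separately below. They are the RefSeq entries of the rat build GRCr8, which held 2 of the 3 members, with the seed in capitals:
rno-miR-378a-3p: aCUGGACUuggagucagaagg
rno-miR-378a-5p: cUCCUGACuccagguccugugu
The arms face each other in the hairpin. Laid antiparallel without gaps, 18 of 20 facing bases can pair, G-U pairs included. Neither seed occurred in any other of the 693 mature rat names in that table. It holds no entry for miR-378b, so the seed of that member was not compared. In the files' coordinates, whose build is rn6 per the submitters' processing notes, miR-378a-3p lies at chr18:56726153-56726173 and miR-378a-5p at chr18:56726190-56726211, both on the minus strand and 16 bases apart. The GRCr8 annotation places this hairpin inside the span of Ppargc1b. miR-378b is a separate locus on another chromosome, chr5:5575671-5575691 on the minus strand, and its gene lies inside the span of Ncoa2, a nuclear receptor coactivator. On the opposite strand of miR-378a the table lists miR-3557-5p and miR-3557-3p. Both were at 0 reads in all 12 libraries, which allows up to 3 reads in each.

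The libraries differed in depth. Reads assigned to the listed microRNAs numbered 1304868 to 2625593 per control library and 1504963 to 1842796 per caffeine library. Dextromethorphan libraries had 403913 to 895792, and libraries of rats given both drugs 758290 to 1160717. DEX2 and DEX3 were the shallowest, with 443564 and 403913 reads. A haemolysis index was taken as log2 of miR-451-5p, which red cells carry, over miR-23a-3p. It was -7.79 to -7.09 in control libraries and -7.09 to -6.39 with caffeine, -6.46 to -5.12 with dextromethorphan and -6.42 to -5.66 with both drugs. Depth and the index therefore moved with the groups.

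The guide strand miR-378a-3p was by far the most abundant member. Levels are in FPKM, fragments scaled to the length of the mature microRNA and to the library's assigned reads. Whether different microRNAs were captured equally well was not tested, so levels of different microRNAs compare only as measured. Its mean over the 12 libraries was 31854 FPKM, rank 66 of 752, and it took 0.0377% to 0.116% of assigned reads. The passenger strand miR-378a-5p averaged 2270 FPKM, rank 171. miR-378b averaged 633 FPKM, rank 239, so that miR-378a-3p lay 50.3-fold above it. The reads behind these values ran from 385 to 1375 for miR-378a-3p, from 25 to 109 for miR-378a-5p and from 5 to 25 for miR-378b. Counts recovered from the FPKM were whole in all 12 libraries for miR-378a-5p, in 5 for miR-378b and in 0 for miR-378a-3p, so that some reads of these 2 were counted in fractions. Whether reads of miR-378a-3p enter the value of miR-378b was not tested.

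**Figure D1:**
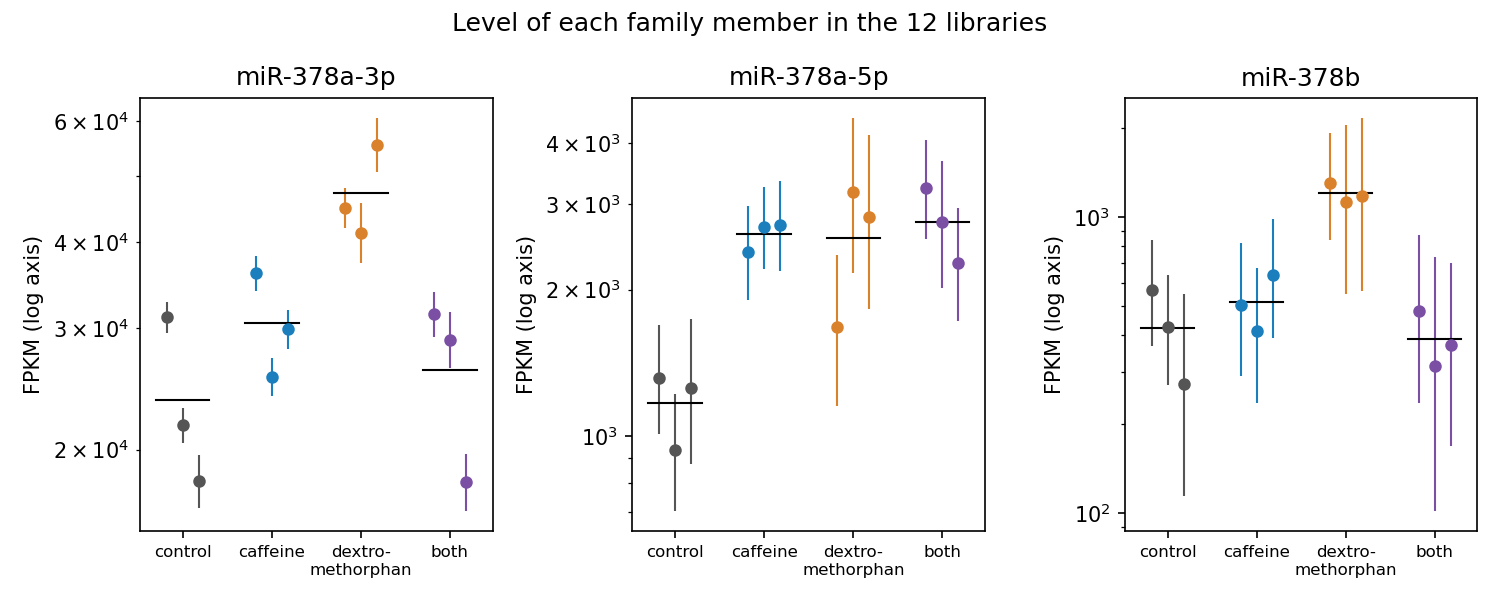
FPKM (log axis) of the 3 members in each of the 12 libraries, by group; points are libraries, vertical lines 95% Poisson intervals (counting error only) and horizontal bars group means. Dextromethorphan libraries lie above control for all 3 members, while all 9 treated libraries lie above control for miR-378a-5p only. Of all tested microRNAs 26% lay above every control library after dextromethorphan, 26% after caffeine and 18% after both drugs. The share above control in all 3 treated groups at once was not counted.

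After dextromethorphan all 3 members were higher than in control. miR-378a-3p was 2.04-fold higher (95% interval 1.33 to 3.11), miR-378a-5p 2.09-fold (1.31 to 3.36) and miR-378b 2.78-fold (1.59 to 4.88), with 3 libraries per group. After caffeine and after both drugs only miR-378a-5p passed the test, 2.20-fold and 2.31-fold higher. Folds are on the scale of log2(FPKM + 40), which understates the change of low values, and a change passed at a limma adjusted p under 0.05 over the 366 microRNAs.

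miR-378a-3p stood at 31121, 21682 and 17992 FPKM in ctrl1, ctrl3 and ctrl5, and at 44906, 41334 and 55456 FPKM in DEX1, DEX2 and DEX3. The lowest dextromethorphan library was above the highest control library, as was so for 26% of all tested microRNAs. The difference was 1.03 ± 0.29 log2 units (SE over 3 libraries per group; limma adjusted p = 0.0352). Caffeine libraries held 36051, 25522 and 29909 FPKM in CAF3, CAF4 and CAF5. They overlapped the control libraries, and the difference of 0.39 ± 0.29 log2 units did not pass (limma adjusted p = 0.431). After both drugs the values were 31449, 28885 and 17936 FPKM in CAFDEX2, CAFDEX3 and CAFDEX6, spanning nearly the range of control. That log2 fold change was 0.14 ± 0.29 (limma adjusted p = 0.761), and its 95% interval, 0.722 to 1.68 as a ratio, still allows a moderate change in either direction. By group mean the order was control (23599 ± 6771 FPKM, SD), both drugs (26090 ± 7177), caffeine (30494 ± 5289) and dextromethorphan (47232 ± 7343). The first 3 of these overlapped one another, and dextromethorphan lay apart from each. The call after dextromethorphan ended without ctrl3, ctrl5, DEX2 or DEX3, where the log2 fold change was 0.85 to 1.12 and the limma adjusted p 0.0548 to 0.125. It also ended once the haemolysis index entered the fit (0.76, limma adjusted p = 0.79) and, with DEX1 as the only dextromethorphan library and the spread taken from the other groups, without DEX2 and DEX3 (0.97, limma adjusted p = 0.17), where the difference itself moved little.

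The passenger strand miR-378a-5p was higher after every treatment. It held 1318, 935 and 1254 FPKM in ctrl1, ctrl3 and ctrl5, and 2392, 2689 and 2718 FPKM in CAF3, CAF4 and CAF5. The caffeine libraries lay close together and above every control library, as did 26% of all tested microRNAs. The rise came to 1.14 ± 0.32 log2 units (SE over 3 libraries per group; limma adjusted p = 0.0419). DEX1, DEX2 and DEX3 held 1674, 3177 and 2813 FPKM. DEX1 was the lowest treated library of the 9 and still above the highest control. After dextromethorphan 26% of tested microRNAs lay above every control library. The change was 1.07 ± 0.32 log2 units (limma adjusted p = 0.0442). CAFDEX2, CAFDEX3 and CAFDEX6 held 3236, 2757 and 2271 FPKM, again all above control, as for 18% of tested microRNAs. Here the log2 fold change was 1.21 ± 0.32 (limma adjusted p = 0.0316).

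The 3 treated groups lay near one another for miR-378a-5p, with means of 2600 ± 180 FPKM (SD) after caffeine, 2555 ± 784 after dextromethorphan and 2755 ± 482 after both. All 3 groups are compared with the same control libraries, whose mean was 1169 ± 205 FPKM and whose reads numbered 36 to 61, so the 3 rises share those values. Leaving out 1 library ended the caffeine call for 8 of 12 libraries (ctrl1, ctrl3, ctrl5, CAF3, CAF4, CAF5, DEX3 and CAFDEX2), with log2 fold changes of 0.99 to 1.23 and limma adjusted p of 0.0531 to 0.188. For dextromethorphan it ended the call for 9 of 12, all but DEX1, CAFDEX3 and CAFDEX6 (0.89 to 1.16, limma adjusted p = 0.0529 to 0.174). For both drugs it did so without ctrl1, ctrl3, CAF5, CAFDEX2 or CAFDEX3 (1.06 to 1.30, limma adjusted p = 0.0511 to 0.134). Once the haemolysis index entered the fit the log2 fold changes were 0.82, 0.30 and 0.59, and none passed (limma adjusted p = 0.281, 0.957 and 0.712). Without DEX2 and DEX3 the dextromethorphan value, then resting on DEX1 alone with the spread of the other groups, was 0.52 (limma adjusted p = 0.469).

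miR-378b followed miR-378a-3p more than miR-378a-5p. It held 566, 426 and 274 FPKM in ctrl1, ctrl3 and ctrl5 and 1302, 1127 and 1179 FPKM in DEX1, DEX2 and DEX3. The dextromethorphan libraries lay close together and above all other 9 libraries. Of all tested microRNAs, 26% lay above every control library after dextromethorphan, 12.3% lay above every caffeine library, and 13.1% were lower in every library after both drugs than after dextromethorphan. The rise over control came to 1.48 ± 0.38 log2 units (SE over 3 libraries per group; limma adjusted p = 0.0268). These values rest on few reads: 24.5, 10.5 and 10 in the dextromethorphan libraries. The 95% Poisson interval of DEX3 was 565 to 2168 FPKM, and that of ctrl1 366 to 835 FPKM, so the counting intervals of single libraries overlapped. Caffeine libraries held 505, 413 and 638 FPKM (log2 fold change 0.31 ± 0.38, limma adjusted p = 0.679). Libraries after both drugs held 481, 314 and 369 FPKM (-0.08 ± 0.38, limma adjusted p = 0.904). Neither group was separate from control. The dextromethorphan call ended without ctrl3, ctrl5, DEX2 or DEX3 (1.22 to 1.52, limma adjusted p = 0.0522 to 0.0905), and once the haemolysis index entered the fit (1.35, limma adjusted p = 0.659). With DEX1 as the only dextromethorphan library, and the spread taken from the other groups, the difference was as large (1.59) and did not pass (limma adjusted p = 0.0927).

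Against the background of all microRNAs, 1 of 3 members was called higher after caffeine, where 6.83% of the 366 tested were, and 3 of 3 after dextromethorphan, where 11.5% were. After both drugs 1 of 3 was, against 6.56%. In either direction 7.92%, 12% and 10.9% passed. The median over the 366 was itself above 0, at 0.19 log2 units for caffeine, 0.47 for dextromethorphan and 0.24 for both drugs, although only 24 of the 40 calls after both drugs were higher. Relative to that median, miR-378a-5p was higher by 0.95, 0.59 and 0.97 log2 units. For miR-378a-3p the same differences were 0.21, 0.55 and -0.10, and for miR-378b 0.12, 1.0 and -0.32. Median-of-ratios scaling moved the medians of all microRNAs to -0.04, 0.11 and 0.09. It left the distance of miR-378a-5p from them at 0.93, 0.56 and 0.96 log2 units, and of its 3 calls only that after both drugs passed (log2 fold change 1.05, limma adjusted p = 0.034). No member passed after dextromethorphan under that scaling, under quantile normalization or after rescaling without the dominant miR-191a-5p.

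**Figure D2:**
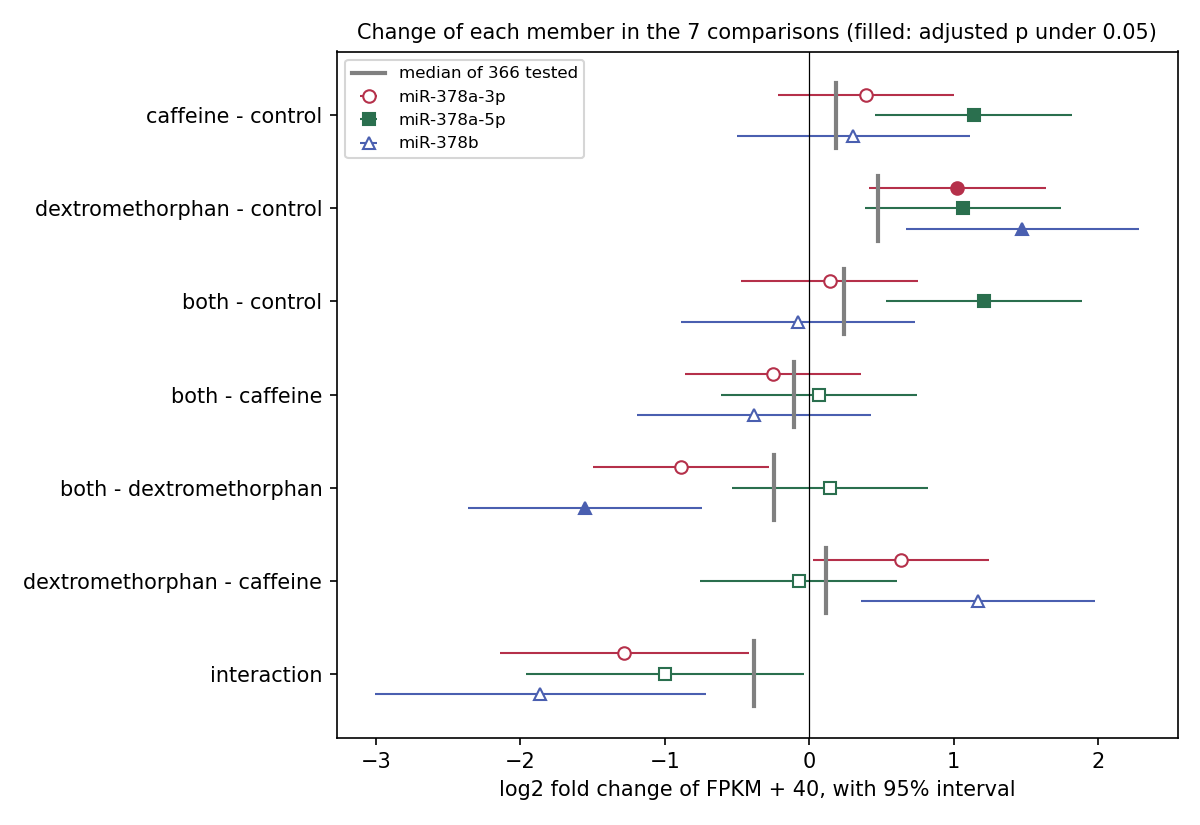
Log2 fold change of FPKM + 40 (horizontal axis) for the 3 members in each of the 7 comparisons, with 95% intervals; filled symbols passed at an adjusted p under 0.05 and grey bars mark the median of the 366 tested microRNAs. All 3 symbols are filled for dextromethorphan against control, and miR-378b alone is filled for both drugs against dextromethorphan.

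What caffeine added to dextromethorphan was read from both drugs against dextromethorphan alone. miR-378b was lower after both drugs, at -1.55 ± 0.38 log2 units (SE over 3 libraries per group; limma adjusted p = 0.0272), a ratio of 0.341 (95% interval 0.194 to 0.597). It was 1 of 12 microRNAs called lower, 3.28% of those tested, and 3.55% were called in either direction. All 3 libraries after both drugs lay below all 3 dextromethorphan libraries, as for 13.1% of tested microRNAs. miR-378a-3p was also below in every library, and its log2 fold change of -0.89 ± 0.29 did not pass (limma adjusted p = 0.128). miR-378a-5p differed little, 0.14 ± 0.32 (limma adjusted p = 0.838). The miR-378b call ended without DEX2, DEX3, CAFDEX3 or CAFDEX6 (-1.60 to -1.43, limma adjusted p = 0.0555 to 0.0955), and with median-of-ratios scaling (-1.32, limma adjusted p = 0.0613). With DEX1 alone in its group, and the spread taken from the other groups, the difference was no smaller (-1.67) and did not pass (limma adjusted p = 0.124). The CAFDEX libraries gave only 10.5, 5 and 9 reads of miR-378b.

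No member passed in the remaining comparisons. Both drugs against caffeine, which shows what dextromethorphan added, gave log2 fold changes of -0.25 ± 0.29 for miR-378a-3p, 0.07 ± 0.32 for miR-378a-5p and -0.38 ± 0.38 for miR-378b (SE, n = 3 per group; limma adjusted p = 0.893, 0.956 and 0.893). In that comparison 0% of the 366 microRNAs passed by limma, 22 (6.01%) had an unadjusted p under 0.05, and voom weights on recovered counts also gave 0. Dextromethorphan against caffeine gave 0.63 ± 0.29, -0.07 ± 0.32 and 1.17 ± 0.38 in the same order (limma adjusted p = 0.326, 0.963 and 0.152), where 2.46% of microRNAs passed. For miR-378a-3p and miR-378b every dextromethorphan library lay above every caffeine library, as for 12.3% of those tested. The interaction, the departure of both drugs from the sum of the single drugs, was -1.28 ± 0.41 for miR-378a-3p, -1.0 ± 0.45 for miR-378a-5p and -1.86 ± 0.54 for miR-378b. None of these passed (limma adjusted p = 0.0869, 0.226 and 0.0625), while 4.64% of all microRNAs did, each with a negative departure. The median departure of all tested microRNAs was itself -0.39.

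Ratios between members within a library do not depend on how the library is scaled. The level of miR-378a-5p was 4.23%, 4.31% and 6.97% of that of miR-378a-3p in ctrl1, ctrl3 and ctrl5. It was 6.64%, 10.5% and 9.09% in the caffeine libraries, 3.73%, 7.69% and 5.07% in the dextromethorphan libraries, and 10.3%, 9.55% and 12.7% in CAFDEX2, CAFDEX3 and CAFDEX6. After both drugs every library had a higher ratio than every control and every dextromethorphan library, while caffeine overlapped control through CAF3 and ctrl5. Of single tested microRNAs 18% lay above every control library after both drugs. The share of other arm ratios that lay apart in this way was not counted. Over the 4 groups the log2 ratio gave an exact permutation p of 0.0335 over all 369600 assignments of the 12 libraries. Adjusted over the 2 ratios tested it was 0.067 and did not pass. Both drugs against control differed by 1.07 log2 units and against dextromethorphan by 1.03, each with a two-sided exact permutation p of 0.1, the smallest that 3 against 3 libraries allow (0.343 adjusted over 12 pairs).

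The arm ratio was also fitted with limma across all 102 microRNAs with both arms tested, an analysis added after the values were seen. The miR-378a ratio was higher by 1.07 ± 0.35 log2 units after both drugs (SE, n = 3 per group; limma adjusted p = 0.129), by 0.75 ± 0.35 after caffeine (0.475) and by 0.04 ± 0.35 after dextromethorphan (0.981). By p it was number 6, 10 and 93 of the 102. After caffeine and after both drugs 0% of the 102 ratios passed, and after dextromethorphan 0.98% did. So although only miR-378a-5p passed after caffeine and after both drugs, a different response of the 2 arms was not shown by this test.

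**Figure D3:**
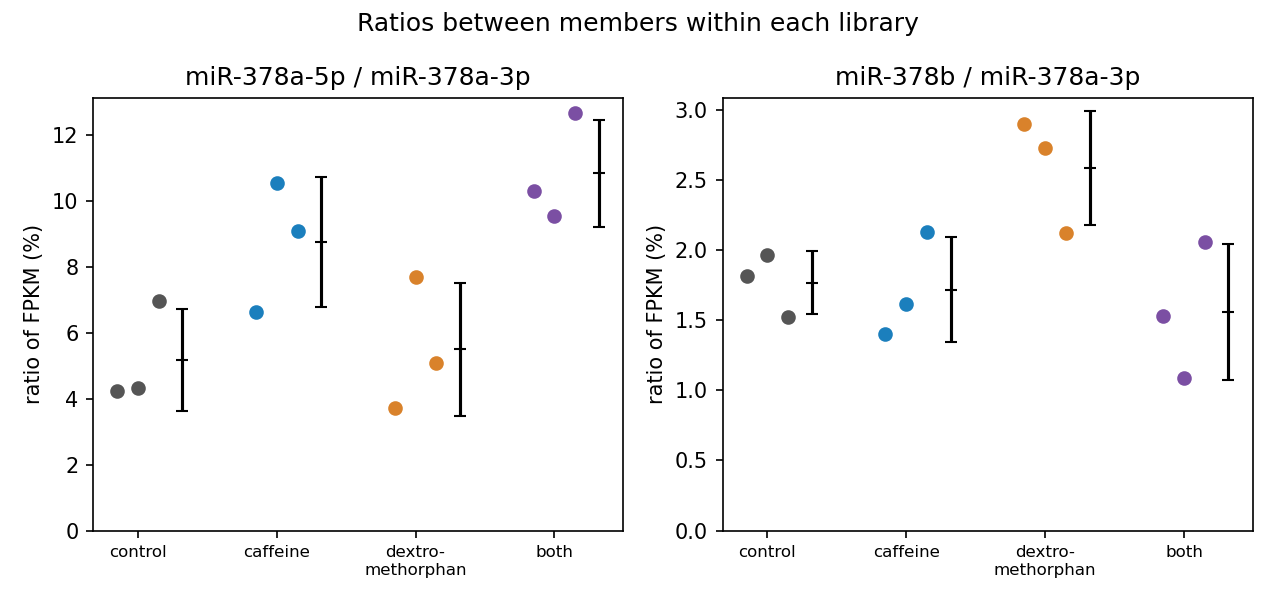
Level of miR-378a-5p (left) and of miR-378b (right) as a percentage of the level of miR-378a-3p in each library, by group; points are libraries, and black marks with bars are means ± SD (n = 3). The left ratio runs from 9.55% to 12.7% after both drugs, above every control and dextromethorphan library. How many other arm ratios lay apart in this way was not counted. By exact permutation no pair of groups could pass, since 3 against 3 libraries give a p of 0.1 at the smallest. By limma no pair passed for the left ratio.

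miR-378b stood at 1.09% to 2.90% of the level of miR-378a-3p over the 12 libraries. Its mean was 1.77% ± 0.226 (SD, n = 3) in control libraries, 1.72% ± 0.376 with caffeine, 2.58% ± 0.406 with dextromethorphan and 1.56% ± 0.486 with both drugs. The dextromethorphan libraries lay above control without overlap but overlapped caffeine. By level, 26% of single tested microRNAs lay above control after dextromethorphan. The share of ratios that lay apart in this way was not counted. Over the 4 groups the exact permutation p was 0.125, also 0.125 adjusted, so a difference of the ratio was not shown with these few libraries.

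The pattern most like miR-378a-3p over the 12 libraries was that of miR-193a-5p, with a Pearson r of 0.90 on the log2 scale. Then came miR-378b (0.87), the endocrine-cell microRNA miR-375-3p (0.83), miR-149-5p (0.81) and miR-222-3p (0.80). The other arm, miR-378a-5p, had an r of only 0.43 with miR-378a-3p. These values describe 12 libraries that share groups and depth. All 5 microRNAs also passed as higher after dextromethorphan, among them miR-193a-5p by 1.2 ± 0.33 and miR-375-3p by 2.24 ± 0.36 log2 units (SE, n = 3 per group; limma adjusted p = 0.0352 and 0.000561). These 5 were chosen for likeness to miR-378a-3p in the same libraries, so their shared rise follows in part from that choice. Of all tested microRNAs 11.5% were called higher after dextromethorphan. In the 9 libraries of the other groups r was 0.78 for miR-193a-5p, 0.67 for miR-378b and 0.50 for miR-375-3p.

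Among 29 other microRNAs known from lipid, glucose and heat-producing metabolism 27 were tested. After caffeine 3 rose and none fell: miR-27b-3p, which represses fat cell differentiation, by 0.99 ± 0.29 log2 units, miR-802-5p by 2.46 ± 0.53 and the hepatocyte microRNA miR-122-5p by 1.78 ± 0.39 (SE, n = 3 per group; limma adjusted p = 0.0475, 0.0137 and 0.0137). After dextromethorphan 5 rose and none fell, the same 3 and also miR-29b-3p and miR-375-3p, by 0.94 (miR-29b-3p) to 3.64 (miR-802-5p) log2 units. After both drugs 2 rose, miR-122-5p by 1.78 and miR-155-5p by 1.89. These counts of 3, 5 and 2 of 27 stand beside 6.83%, 11.5% and 6.56% of all tested microRNAs called higher. The list's median log2 fold change was 0.36 after caffeine, 0.35 after dextromethorphan and 0.04 after both, beside 0.19, 0.47 and 0.24 for all microRNAs. The abundant members miR-148a-3p, miR-143-3p and miR-26b-5p, with mean levels of 812144, 508667 and 290083 FPKM, did not pass in these 3 comparisons. By level, miR-378a-3p lay below each of these and above miR-375-3p, which averaged 15240 FPKM.

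Marker microRNAs of tissues that hold the family, and of blood cells, were summed in each library. Beside the counts below, 6.83% of all tested microRNAs were called higher after caffeine, 11.5% after dextromethorphan and 6.56% after both drugs. The summed level of 8 striated muscle microRNAs was 8498 to 24994 FPKM in control libraries, 85043 to 203281 with caffeine, 13627 to 51585 with dextromethorphan and 28969 to 75825 with both drugs. It was thus highest after caffeine. Most of the sum is miR-206-3p, at a mean of 46248 FPKM beside 9380 FPKM for miR-1-3p. Of the 4 tested muscle microRNAs 3 rose after caffeine, from 2.67 log2 units (miR-133a-3p) through 3.25 (miR-206-3p) to 3.37 (miR-1-3p). The other, miR-499-5p, did not pass after any treatment (0.36 after caffeine, limma adjusted p = 0.828). After dextromethorphan miR-133a-3p rose, and after both drugs miR-133a-3p and miR-206-3p. The 6 hepatocyte microRNAs summed to 1.90e+06 to 3.18e+06 FPKM in control libraries, 3.77e+06 to 5.80e+06 with caffeine, 4.16e+06 to 7.81e+06 with dextromethorphan and 4.06e+06 to 5.53e+06 with both drugs, so each treated group lay above control, as for miR-378a-5p. Of the 6, which include 3 of the metabolic list, miR-122-5p and miR-192-5p rose after all 3 treatments. miR-802-5p rose after caffeine and after dextromethorphan, and miR-194-5p after dextromethorphan. miR-148a-3p was lower without passing, by -0.66 log2 units after caffeine, -0.42 after dextromethorphan and -0.66 after both, and miR-122-3p passed in none. The 5 brown fat microRNAs summed to 20020 to 35835 FPKM in control and 45533 to 65890 after dextromethorphan, without overlap. Of single tested microRNAs 26% lay above control in this way. Most of the brown fat sum is miR-455-3p, at a mean of 27963 FPKM. None of the 5 passed in any comparison by limma. They held 33475 to 55094 FPKM after caffeine and 33620 to 48782 after both. Of the 5 listed red-cell microRNAs miR-144-5p, miR-451-3p and miR-451-5p rose after dextromethorphan, the last also after both drugs and none after caffeine. Their sum was 4.32e+06 to 4.50e+06 FPKM in control, 4.09e+06 to 4.35e+06 with caffeine, 4.53e+06 to 5.59e+06 with dextromethorphan and 4.42e+06 to 5.93e+06 with both. That sum is almost wholly miR-16-5p, which averaged 4773900 FPKM beside 4024 FPKM for miR-451-5p, so it does not show the level of the 3 that rose. The 6 leukocyte microRNAs summed to 3.91e+06 to 4.06e+06 FPKM in control, 4.33e+06 to 4.85e+06 with caffeine, 3.01e+06 to 4.21e+06 with dextromethorphan and 4.75e+06 to 6.78e+06 with both. miR-150-5p and miR-146a-5p rose after caffeine and after both drugs, and miR-155-5p after both drugs. The most abundant of the 6, miR-223-3p (mean 2532980 FPKM), was lower without passing. Its log2 fold changes were -0.20 after caffeine, -0.66 after dextromethorphan and -0.22 after both. miR-142-3p and miR-142-5p passed after none of the 3 treatments. The part of any of these sources in the levels of the miR-378 family was not tested.

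**Figure D4:**
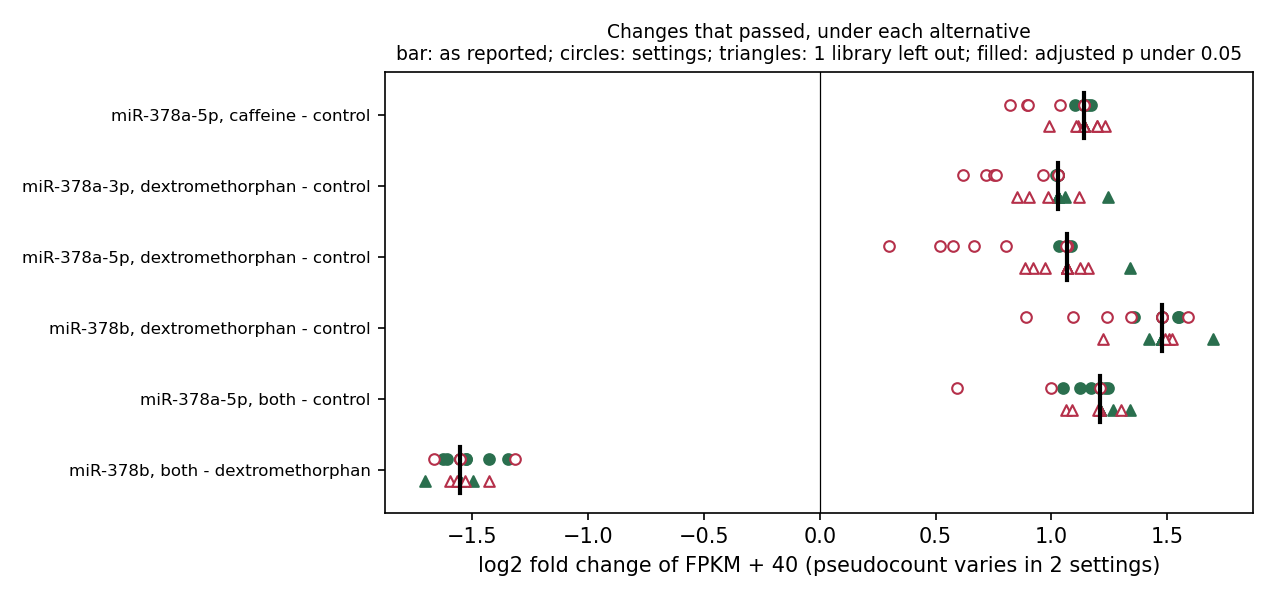
Log2 fold change (horizontal axis) of the 6 member changes that passed, as reported (black bars), under 12 other settings (circles) and with 1 library left out at a time (triangles); filled symbols passed at an adjusted p under 0.05. All 6 kept their direction under all 24 alternatives, and each lost its call under at least 8 of them.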

How the data were processed

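Small RNA from 200 uL of rat serum was isolated with the miRNeasy Micro Kit and made into libraries with the QIAseq miRNA kit, whose primers carry unique molecular indices, per the labels' protocols. The sources used here do not say whether these indices were used. The authors deposited FPKM per mature microRNA. Build rn6, DESeq2 1.20.0, Subread 2.0.1, featureCounts, STAR 2.7.10a and cutadapt 3.7 are named in the submitters' processing notes; the sources used here give neither their steps nor a strand setting. FPKM times length summed to the same constant in each library, which makes every value a share of the reads on listed microRNAs: a rise in abundant ones lowers the rest. Read counts were recovered as the smallest steps (0.01 read, tolerance 0.0001 of a step) that explain all values; intervals and floors from them cover counting error only.

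The 836 rows were summed to 752 names, and 69 names had several loci (no member did). Tested names had a mean of 80 FPKM or more and were above 0 in 3 or more libraries. limma 3.58.1 in R 4.3.3 was fitted on log2(FPKM + 40) with 4 group means and a trend of variance on level (8 residual and 7.58 prior degrees of freedom) and Benjamini-Hochberg adjustment over 366 microRNAs; tests are two-sided. Log2 ratios of FPKM + 40 were tested by exact permutation. Both procedures were tested on simulated data. Figures and permutations used matplotlib 3.10.9, pandas 2.3.3 and numpy 2.4.6 under Python 3.11.15. The text names the 3 members in every comparison and the 5 microRNAs with the highest Pearson correlation with miR-378a-3p. From the lists it names those that passed where they are counted, at most the 4 most abundant and some others that did not pass. The members and lists were chosen with earlier results of these data known. Alternatives covered pseudocounts, the filter, scaling, loci, trend, the groups fitted, voom, a covariate and leaving out libraries.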

Additional observations from a re-analysis of the deposited data

How the results depend on the processing

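No paired analysis was possible because the columns' library numbers are not the replicate numbers of the sample titles. In the same direction but past the threshold no longer were these log2 fold changes against control. For miR-378a-5p after caffeine: 1.14 with no filter or no trend, 0.90 under median-of-ratios scaling or quantile normalization, 1.04 rescaled without miR-191a-5p and 0.82 after adding the haemolysis index as a covariate. After dextromethorphan, in the order miR-378a-3p, miR-378a-5p and miR-378b: 0.62, 0.67 and 1.09 under median-of-ratios scaling, 0.72, 0.57 and 0.89 under quantile normalization, 0.75, 0.81 and 1.24 without miR-191a-5p, 1.03, 1.07 and 1.48 fitted on the compared groups only, 0.76, 0.30 and 1.35 with the index and 0.97, 0.52 and 1.59 without DEX2 and DEX3 (chosen after seeing the data; DEX1 alone is then assumed to vary like the other groups). miR-378a-3p and miR-378a-5p also lost it without the trend (1.03 and 1.07), miR-378a-5p and miR-378b without the filter (1.07 and 1.48), and miR-378a-5p with voom (1.06). For miR-378a-5p after both drugs: 1.21 without the filter, 1.0 without miR-191a-5p and 0.59 with the index. For miR-378b in both drugs against dextromethorphan: -1.55 without the filter and with the compared groups only, -1.32 with median-of-ratios scaling and -1.67 without DEX2 and DEX3. The miR-378b interaction passed without the trend (-1.86). The cause was not tested.

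With 1 library left out, miR-378a-5p ranged from 0.99 to 1.23 after caffeine and from 1.06 to 1.34 after both drugs. After dextromethorphan the ranges were 0.85 to 1.24 for miR-378a-3p, 0.89 to 1.34 for miR-378a-5p and 1.22 to 1.70 for miR-378b, and miR-378b ranged from -1.70 to -1.43 in both drugs against dextromethorphan. The p of the arm ratio ranged from 0.0148 to 0.0762 and that of the miR-378b ratio from 0.0234 (without CAFDEX6) to 0.325; the arm ratio was above 0.05 without ctrl1 (0.0537), ctrl3 (0.0553), CAF5 (0.0536), CAFDEX2 (0.0602), CAFDEX3 (0.0508) or CAFDEX6 (0.0762). Signs changed only for values that did not pass: miR-378b after caffeine (-0.060 with quantile normalization); miR-378a-3p after both drugs (-0.023 with median-of-ratios scaling, -0.081 without miR-191a-5p, -0.074 with the index, -0.035 without ctrl5 and -0.014 without CAFDEX2, up to 0.39 without CAFDEX6) and miR-378b (0.14 without ctrl1 and 0.05 without CAFDEX3, down to -0.33 without ctrl5). They also changed for miR-378a-5p in both drugs against caffeine (-0.038 without miR-191a-5p, -0.23 with the index, -0.052 to 0.20 with 1 library left out, the lowest without CAFDEX2), in both drugs against dextromethorphan (-0.13 without DEX1 to 0.32 without DEX2) and in dextromethorphan against caffeine (0.20 without DEX1 to -0.25 without DEX2).

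Counts of microRNAs passing moved by over 1.5 times as follows. After caffeine (29): 11 without the filter, 19 under median-of-ratios scaling, 18 under quantile normalization, 9 without the trend, 65 with the compared groups only, 49 with voom, 5 with the index and 4 to 44 with 1 library left out. After dextromethorphan (44): 26 without the filter, 28 without miR-191a-5p, 18 without the trend, 25 with the compared groups only, 1 with the index, 18 without DEX2 and DEX3 and 12 to 74 with 1 left out. After both drugs (40): 13 without the filter, 17 without the trend, 1 with the index and 3 to 56 with 1 left out. In both drugs against dextromethorphan (13): 0 without DEX2 and DEX3 and 9 to 24 with 1 left out. In dextromethorphan against caffeine (9): 3 with the compared groups only, 0 with the index, 0 without DEX2 and DEX3 and 3 to 27 with 1 left out. In the interaction (17): 9 without the filter, 8 under median-of-ratios scaling, 7 under quantile normalization, 11 without miR-191a-5p, 7 with the index and 8 to 38 with 1 left out. The split of higher against lower calls under median-of-ratios scaling was 12 of 19 higher after caffeine, against 25 of 29 as reported, 15 of 34 after dextromethorphan, against 42 of 44, and 19 of 44 after both, against 24 of 40. Depth limits miR-378b most: 1 read was worth 18.1 FPKM in ctrl3 and 118 FPKM in DEX3.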
